A study of Solanum lycopersicum with 24 samples.

Results

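The 8 genes described here encode parts of the plant cell division machinery: the cyclins CycD3;3, CycA2 and CycB2, the kinase cdkB2, the replication clamp pcna, the histones H2B-2 (an H2B) and LOC544081 (an H4), and the kinesin-related protein TKR. They were taken by symbol from the authors' deposited tables, where each is held by 1 of the 10209 probe sets on the array. Leaves of tomato (Solanum lycopersicum) were sampled at flowering in a drought and a heat experiment, with 12 arrays each. In the drought experiment, stressed tolerant plants and stressed susceptible plants had been without water for 7 days, and control tolerant and control susceptible plants were grown without stress. In the heat experiment, stressed plants of a tolerant and of a susceptible genotype had been held at 40 C for 60 min, and their controls were unstressed. Each of the 8 groups had 3 arrays. The labels name the genotypes only as tolerant or susceptible within an experiment and give no cultivar, and they do not say that replicates came from separate plants. P-values therefore cover only the spread among these arrays, part or all of which may be technical, and the number of arrays limits the precision.

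Plant cells divide when D-type cyclins, which respond to growth signals, bind kinases and release the block on entry into DNA synthesis. During DNA synthesis the clamp PCNA holds the polymerase on its template, and histones H2B and H4 are made in bulk to package the new DNA. A-type cyclins act from DNA synthesis towards mitosis, B-type cyclins and the plant-specific B2-type kinases act around entry into mitosis, and kinesins move along the microtubules of the spindle and the division plane. In leaves such transcripts are typical of young growing tissue and are scarce once cells have stopped dividing.

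The deposited tables list a probe set where the response to stress differed between genotypes (corrected p under 0.05) with a fold of at least 2 in a genotype, so the members were chosen on these arrays. The drought table lists H2B-2, LOC544081, CycA2 and TKR, and the heat table lists CycD3;3, pcna, CycB2, cdkB2 and TKR. A member's values are given without a test in the experiment whose table lists it, and it is tested only in the other. TKR is in both tables and is described throughout. By the authors' deposited table the member nearest the fold threshold was CycD3;3 under heat, at a fold of 2.68 in tolerant plants, and the farthest was H2B-2 under drought, at a fold of 35.2 in susceptible plants. Folds in those tables differ from the folds of the group means used below, which give 44.7 for that response of H2B-2. Levels are log2 values, so a difference of 1 is a doubling. Where at least 2 of 3 arrays of the dimmer group did not exceed, on their own array, the 95th percentile of the 63 probe sets for reporter genes that match no tomato sequence, the difference is given as a bound, and where the brighter group did so too, or alone, no difference is read.

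The arrays of the tolerant plants stood apart. In the drought experiment the bioB spike-in lay between 10.65 and 11.61 on tolerant arrays and between 5.35 and 6.87 on susceptible arrays, and replicates correlated at 0.919 to 0.963 in tolerant groups and at 0.997 or more in susceptible groups. The 3' minus 5' signal of gapdh, actin and ef1a, which grows as RNA degrades, lay between 1.59 and 1.74 in stressed tolerant plants against 2.16 and 3.91 in control tolerant plants of that experiment, and between 0.700 and 0.793 in stressed susceptible plants against 1.12 and 1.37 in their controls. Of 10 marker genes of flowers and pollen, 3 were named. The log2 of their summed linear intensities was 8.29 to 8.37 in drought-stressed susceptible plants against 9.77 to 9.84 in their controls. In drought-stressed tolerant plants it was 9.89 to 10.18 against 9.58 to 9.74 in their controls. In 7 of the 8 groups 1 of these 3 lay in the reporter range. The same sum was taken over 14 probe sets of 9 leaf genes for light harvesting, photosystems and carbonic anhydrase. Between 1 and 3 of the 14 lay in the reporter range in each group. This leaf sum lay between 13.5 and 13.6 in drought-stressed tolerant plants against 15.2 and 15.3 in their controls. In drought-stressed susceptible plants it lay between 14.8 and 14.9, against 15.5 and 15.6 in their controls. It lay between 15.4 and 15.5 in heat-stressed tolerant plants against 14.3 and 15.2 in their controls, and between 15.6 and 15.7 in heat-stressed susceptible plants against 15.5 and 15.6 in their controls. The flower sum was 9.74 to 9.99 in heat-stressed tolerant plants against 9.98 to 10.09 in their controls, and 9.02 to 9.20 in heat-stressed susceptible plants against 9.78 to 9.91 in their controls. In the heat experiment the 3' minus 5' signal lay between 3.27 and 4.62 in stressed tolerant plants against 4.33 and 4.56 in their controls, and between 2.93 and 3.28 in stressed susceptible plants against 3.46 and 3.76 in their controls, and replicates of tolerant plants correlated at 0.946 or more. The part of these markers and of RNA integrity in the results was not tested. Each fit used a common spread over its 4 groups, so standard errors in tolerant plants may be too small. In whole leaves, fewer dividing cells and less transcript per cell cannot be told apart.

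**Figure D1:**
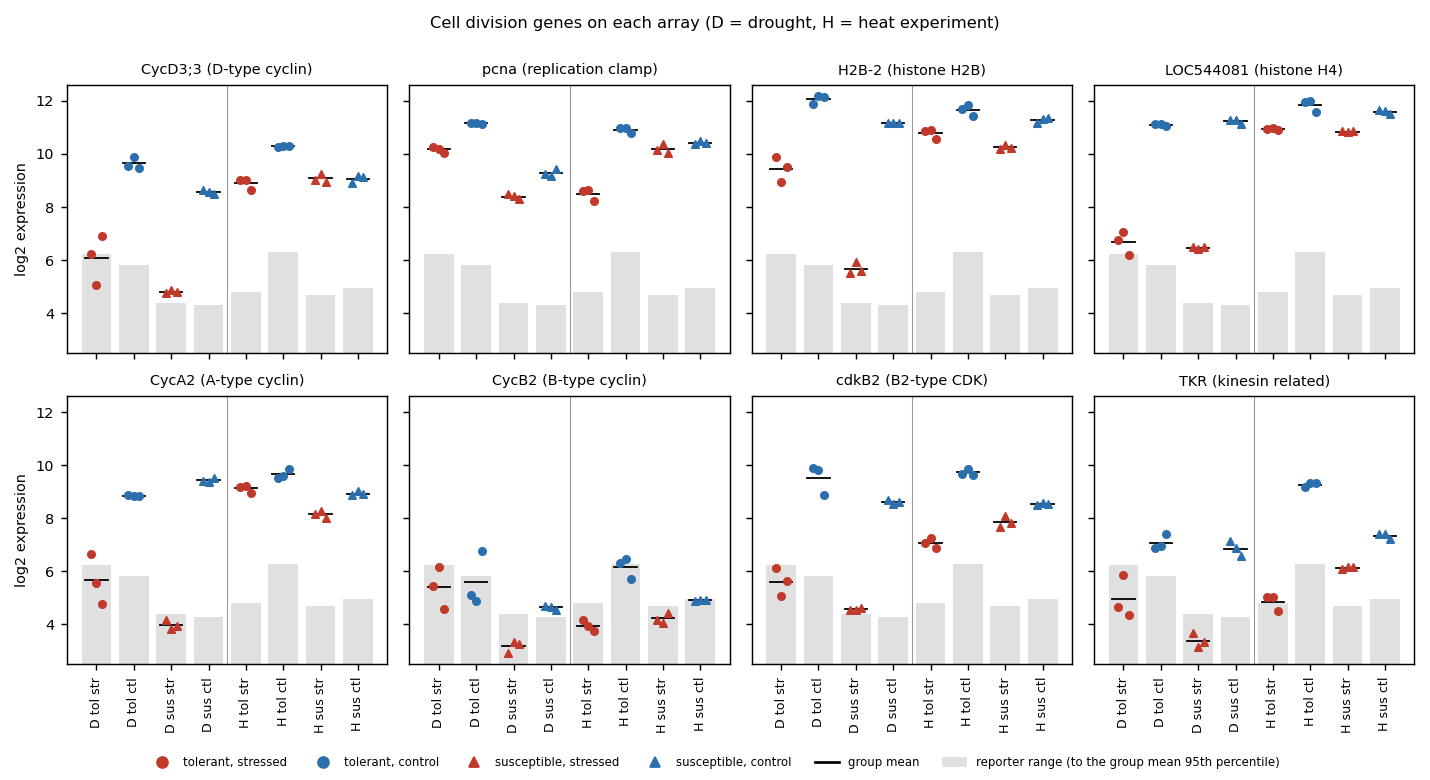
Log2 level of each of the 8 members on every array, by group, with D and H for the drought and heat experiments and bars for group means. The shaded columns show the reporter range. Drought-stressed susceptible plants hold the lowest group mean of every member, within the reporter range for CycA2, CycB2 and TKR.

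In drought, the G1 cyclin, the clamp and the mitotic kinase were lower in stressed plants of both genotypes. Of the 4 members that could be tested, 3 fell in tolerant plants, where 23.2% of all probe sets were called lower, and all 4 fell in susceptible plants, where 19.7% were. With members near background at their bound, the median was -3.18 in tolerant plants, over the 3 members with a difference or bound. It was -2.32 in susceptible plants, over 4. CycB2 is in the susceptible median alone, so these 2 medians are not set against each other. At the fitted differences of all 4 members they were -2.28 in tolerant and -2.61 in susceptible plants. Over all probe sets the medians were 0.11 and 0.05. The reporter probe sets had medians of 0.27 and 0.04.

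CycD3;3, the D-type cyclin, stood at 6.24, 5.08 and 6.91 in stressed tolerant plants, against 9.56, 9.89 and 9.46 in control tolerant plants. In stressed susceptible plants it stood at 4.76, 4.87 and 4.79, against 8.65, 8.55 and 8.48 in their controls. All stressed arrays lay below all control arrays of the same genotype, and the 3 stressed tolerant arrays were spread over more than 1 log2 unit. The response was -3.56 ± 0.36 in tolerant plants (limma, SE, adjusted p = 2.25e-05) and -3.75 ± 0.36 in susceptible plants (limma adjusted p = 1.68e-05). The 2 responses differed by 0.19, with a 95% interval of -0.95 to 1.33 (limma adjusted p = 0.809).

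pcna, which keeps DNA polymerase on its template, had smaller differences than CycD3;3. It stood at 10.25, 10.20 and 10.05 in stressed tolerant plants, against 11.17, 11.18 and 11.13 in control tolerant plants. Stressed susceptible plants had 8.48, 8.42 and 8.29, against 9.23, 9.16 and 9.43 in their controls. The groups did not overlap in either genotype, and the falls were close in size, -0.99 ± 0.11 in tolerant (limma adjusted p = 3.06e-05) and -0.88 ± 0.11 in susceptible plants (limma adjusted p = 7.77e-05). Their difference was -0.11, with a 95% interval of -0.44 to 0.22 (limma adjusted p = 0.603).

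cdkB2, the B2-type kinase of the entry into mitosis, had 6.12, 5.06 and 5.62 in stressed tolerant plants, against 9.89, 9.83 and 8.87 in control tolerant plants. In stressed susceptible plants it had 4.55, 4.53 and 4.63, against 8.67, 8.53 and 8.62 in their controls. Stressed arrays were the lower ones in both genotypes without overlap. The response was -3.18 or lower in tolerant plants, where 2 stressed arrays lay in the reporter range (limma adjusted p = 3.23e-06), and -4.03 ± 0.30 in susceptible plants (limma adjusted p = 2.58e-06). The fitted difference of responses was 0.11, with a 95% interval of -0.84 to 1.05 (limma adjusted p = 0.873). It rests on those dim tolerant arrays and is not read.

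CycB2, the B-type cyclin, was dim throughout. Its levels of 5.44, 6.17 and 4.59 in stressed tolerant plants overlapped the 5.09, 4.87 and 6.77 of control tolerant plants, and both groups lay in the reporter range. In stressed susceptible plants it had 2.93, 3.32 and 3.27, against 4.70, 4.67 and 4.54 in their controls. Those groups did not overlap, and the difference was -0.24 or lower (limma adjusted p = 0.0357). That call was lost when any 1 of the 6 susceptible arrays was left out, with adjusted p between 0.0703 and 0.106, after repeated quantile normalization (adjusted p = 0.153) and with the replicate number as a block (adjusted p = 0.0630). With an array left out, the fitted difference stayed between -1.34 and -1.54. The call was kept in a fit of the susceptible groups alone.

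None of the 4 members had a called difference between the drought responses, and none had one at an unadjusted p under 0.05 in limma, beside 37.2% of all probe sets called. Their absence from the drought table already shows that they missed a criterion there, so this count is not independent of it. The tolerant response of CycB2 is not read and that of cdkB2 is a bound, so only CycD3;3 and pcna bear on the comparison. Without control tolerant replicate 3 the count was 1, CycB2 (limma adjusted p = 0.0157), whose stressed groups lay in the reporter range.

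The members listed by the drought table were lower in stressed plants of both genotypes too. H2B-2, a histone of the nucleosome core, had 9.88, 8.95 and 9.52 in stressed tolerant plants, against 11.87, 12.20 and 12.16 in control tolerant plants. In stressed susceptible plants it had 5.52, 5.92 and 5.59, against 11.16, 11.15 and 11.17 in their controls. The control levels of both genotypes were within about a unit of each other while the stressed levels were far apart, and the differences were -2.63 in tolerant and -5.48 in susceptible plants.

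LOC544081, the histone H4 gene, did not show that gap. It had 6.77, 7.07 and 6.20 in stressed tolerant plants, against 11.13, 11.11 and 11.06 in control tolerant plants. Stressed susceptible plants had 6.48, 6.41 and 6.48, against 11.26, 11.27 and 11.14 in their controls. The stressed groups of the genotypes overlapped, and the differences from the controls were -4.42 in tolerant and -4.77 in susceptible plants. The fitted responses were thus 0.35 apart, although the drought table lists this gene for a difference of responses. The authors' folds were 14.8 in tolerant and 22.4 in susceptible plants, and the reason for the gap between the 2 sources was not tested.

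CycA2, an A-type cyclin, had 6.67, 5.56 and 4.75 in stressed tolerant plants, against 8.86, 8.85 and 8.84 in control tolerant plants. Susceptible plants under stress had 4.18, 3.81 and 3.92, against 9.42, 9.37 and 9.52 in their controls. The control replicates agreed closely and the stressed tolerant ones did not, and the bounds were -2.32 or lower in tolerant and -5.04 or lower in susceptible plants.

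TKR, titled a kinesin-related protein, had 4.64, 5.86 and 4.34 in stressed tolerant plants, against 6.86, 6.95 and 7.41 in control tolerant plants. Its levels in stressed susceptible plants were 3.67, 3.14 and 3.32, against 7.13, 6.88 and 6.56 in their controls. All 6 stressed arrays lay in the reporter range, which gave bounds of -0.88 or lower in tolerant and -2.45 or lower in susceptible plants. Over the 8 members, stressed and control arrays did not overlap for 7 in tolerant plants, all lower, where 22.6% of all probe sets did so, and for 8 in susceptible plants, where 34.7% did. The rule used this contrast for 4 of the members.

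**Figure D2:**
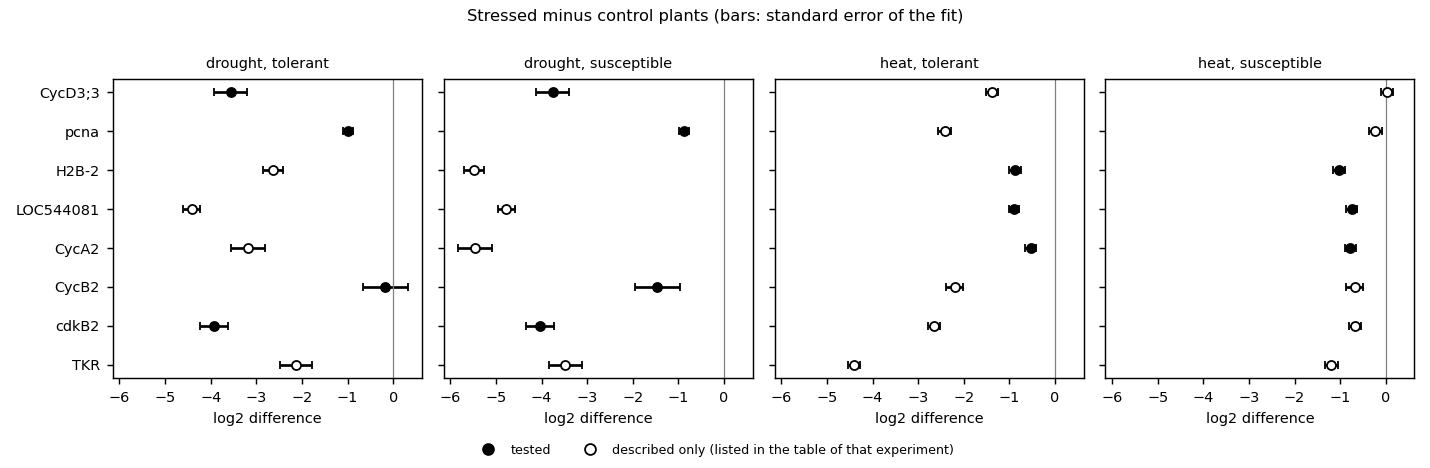
Log2 difference of stressed minus control plants for each member, in tolerant and susceptible plants of each experiment, with the standard error of the fit. Filled points were tested and open points are described only, and members with bounds in the text are drawn at their fitted difference. In drought every point lies at or below 0, while under heat the open points of tolerant plants lie below those of susceptible plants.

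After 60 min of heat, the histones and CycA2 were lower in both genotypes. The sizes are not set against those in drought, whose table lists these 3 members. All 3 testable members fell in tolerant plants, where 25.5% of all probe sets were called lower, and all 3 fell in susceptible plants, where 9.15% were. The median of the 3 differences was -0.88 in tolerant and -0.78 in susceptible plants, against medians of 0.01 and -0.00 over all probe sets. In tolerant plants the reporter probe sets moved too, with a median of -0.86, and their part in the result was not tested. In susceptible plants the reporter median was -0.15. The mean of the array medians was 0.28 higher in stressed than in control tolerant plants, and centring the arrays kept the 3 falls.

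H2B-2 had 10.88, 10.89 and 10.57 in heat-stressed tolerant plants, against 11.71, 11.83 and 11.44 in control tolerant plants. Stressed susceptible plants had levels of 10.17, 10.34 and 10.23, against 11.18, 11.32 and 11.35 in their controls. The groups did not overlap in either genotype. It fell by 0.88 on the log2 scale in tolerant plants (limma SE 0.13, adjusted p = 0.000303) and by 1.04 in susceptible plants (limma SE 0.13, adjusted p = 0.000145).

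LOC544081 had 10.93, 10.98 and 10.91 in stressed tolerant plants, against 11.95, 11.98 and 11.58 in control tolerant plants. Among susceptible plants, stressed ones had 10.85, 10.83 and 10.85, against 11.66, 11.62 and 11.50 in their controls. Stressed arrays were below control arrays in each case, by -0.90 ± 0.12 in tolerant (limma adjusted p = 0.000126) and by -0.75 ± 0.12 in susceptible plants (limma adjusted p = 0.000671).

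CycA2 had 9.19, 9.23 and 8.95 in stressed tolerant plants, against 9.53, 9.60 and 9.84 in control tolerant plants. Susceptible plants under stress had 8.15, 8.27 and 8.02, against 8.86, 9.01 and 8.91 in their controls. The response was -0.53 ± 0.12 in tolerant (limma adjusted p = 0.00388) and -0.78 ± 0.12 in susceptible plants (limma adjusted p = 0.000654), without overlap.

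The responses of these 3 members did not differ detectably between genotypes. The difference was 0.15 for H2B-2 (95% interval -0.25 to 0.56, limma adjusted p = 0.538), -0.15 for LOC544081 (-0.51 to 0.21, limma adjusted p = 0.503) and 0.25 for CycA2 (-0.13 to 0.63, limma adjusted p = 0.282). None was called in limma and none had an unadjusted p under 0.05, beside 27.6% of all probe sets called. As in drought, their absence from the heat table bears on that count, and it was 3 with array weights and 1, LOC544081, after repeated quantile normalization.

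The members listed by the heat table were far lower in heated tolerant plants, and little or less so in susceptible ones. TKR had 5.03, 5.03 and 4.51 in stressed tolerant plants, against 9.16, 9.31 and 9.32 in control tolerant plants. Its levels in stressed susceptible plants were 6.08, 6.15 and 6.16, against 7.39, 7.39 and 7.20 in their controls. The difference was -4.41 in tolerant and -1.20 in susceptible plants, the largest among the members under heat in each genotype.

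cdkB2 had 7.07, 7.27 and 6.86 in stressed tolerant plants, against 9.66, 9.86 and 9.64 in control tolerant plants. Stressed susceptible plants had levels of 7.66, 8.07 and 7.83, against 8.48, 8.58 and 8.54 in their controls. Groups did not overlap, and the differences were -2.65 in tolerant and -0.68 in susceptible plants.

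pcna had 8.59, 8.65 and 8.21 in stressed tolerant plants, against 10.97, 10.96 and 10.77 in control tolerant plants. In stressed susceptible plants its levels of 10.16, 10.38 and 10.05 overlapped the 10.38, 10.49 and 10.42 of their controls. The difference was thus -2.42 in tolerant and -0.23 in susceptible plants.

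CycD3;3 had 9.02, 9.03 and 8.64 in stressed tolerant plants, against 10.25, 10.30 and 10.30 in control tolerant plants. In susceptible plants the 9.03, 9.25 and 8.96 of stressed plants overlapped the 8.89, 9.17 and 9.13 of their controls. The differences were -1.39 in tolerant and 0.02 in susceptible plants.

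CycB2 had 4.15, 3.94 and 3.75 in stressed tolerant plants, against 6.30, 6.46 and 5.70 in control tolerant plants, a difference of -1.34 or lower. In susceptible plants it had 4.17, 4.06 and 4.44 under stress, against 4.89, 4.92 and 4.90 in controls, and both groups lay in the reporter range. Over the 8 members, stressed and control arrays did not overlap for 8 in tolerant plants, all lower (25.8% of all probe sets). In susceptible plants they did not overlap for 6, all lower (25% of all probe sets), with CycB2 counted among them. The rule used this contrast for 5 of the 8 members, so these counts are a description.

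Between genotypes of the drought experiment, pcna was higher in tolerant plants with and without stress. Among stressed plants all 4 testable members were called higher in tolerant leaves, where 39.1% of all probe sets were, but for 2 of them, cdkB2 (limma adjusted p = 0.0117) and CycB2 (limma adjusted p = 0.00273), the tolerant arrays lay in the reporter range and no difference is read. pcna was higher by 1.77 (limma adjusted p = 3.47e-07) and CycD3;3 by 1.27 (limma adjusted p = 0.0105). The reporter probe sets were also higher in stressed tolerant plants, with a median of 1.17 beside 1.52 for pcna and CycD3;3 and 0.21 for all probe sets, and their part was not tested. With the RNA integrity covariate the calls of CycD3;3 (limma adjusted p = 0.0733) and cdkB2 (limma adjusted p = 0.0767) were lost. Repeated quantile normalization left 1 call of the 4.

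In control plants of the drought experiment 3 of 4 were higher in tolerant leaves, where 34.9% of all probe sets were. pcna was higher by 1.88 (limma adjusted p = 4.23e-07), CycD3;3 by 1.08 (limma adjusted p = 0.0261) and cdkB2 by 0.92 (limma adjusted p = 0.0227), while CycB2, whose tolerant arrays lay in the reporter range, was not called (limma adjusted p = 0.129). The reporter median was 0.94 here, beside 1.08 for these 3 members, and its part was not tested. With the integrity covariate the calls of CycD3;3 (limma adjusted p = 0.378) and cdkB2 (limma adjusted p = 0.349) were lost. Only pcna was called without susceptible control replicate 2 or 3, or without tolerant control replicate 2. Of the members listed for drought, H2B-2 was higher in tolerant plants by 3.77 under stress and by 0.92 in controls, and for LOC544081 the difference was 0.22 under stress, with overlap, and -0.13 in controls. CycA2 was lower in control tolerant plants, by -0.59 without overlap, and TKR overlapped in controls at 0.22. Under stress both lay in the reporter range.

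In the heat experiment 2 of 3 testable members were higher in tolerant plants under stress, where 17.9% of all probe sets were, and 2 of 3 in controls, where 31.6% were. CycA2 was higher by 0.98 under stress (limma adjusted p = 0.000158) and by 0.73 in controls (limma adjusted p = 0.000815). H2B-2 was higher by 0.53 under stress (limma adjusted p = 0.00959) and by 0.38 in controls (limma adjusted p = 0.0284), and LOC544081 was not called at 0.10 (limma adjusted p = 0.595) and 0.24 (limma adjusted p = 0.0901). The control call of H2B-2 was lost without heat susceptible control replicate 1 or 2, or heat tolerant control replicate 1 or 2. With the integrity covariate H2B-2 was no longer called, at 0.26 under stress (limma adjusted p = 0.334) and 0.14 in controls (limma adjusted p = 0.453). The reporter median was 0.10 under stress and 0.87 in controls, and its part was not tested.

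The members listed for heat had another pattern. In controls, tolerant plants were higher for TKR (1.94), CycD3;3 (1.22), CycB2 (at least 1.18), cdkB2 (1.19) and pcna (0.47). Under stress they were lower for pcna (-1.71), TKR (-1.27) and cdkB2 (-0.78), and overlapped for CycD3;3 (-0.19). These values are a description, since the rule used the difference of responses.

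**Figure D3:**
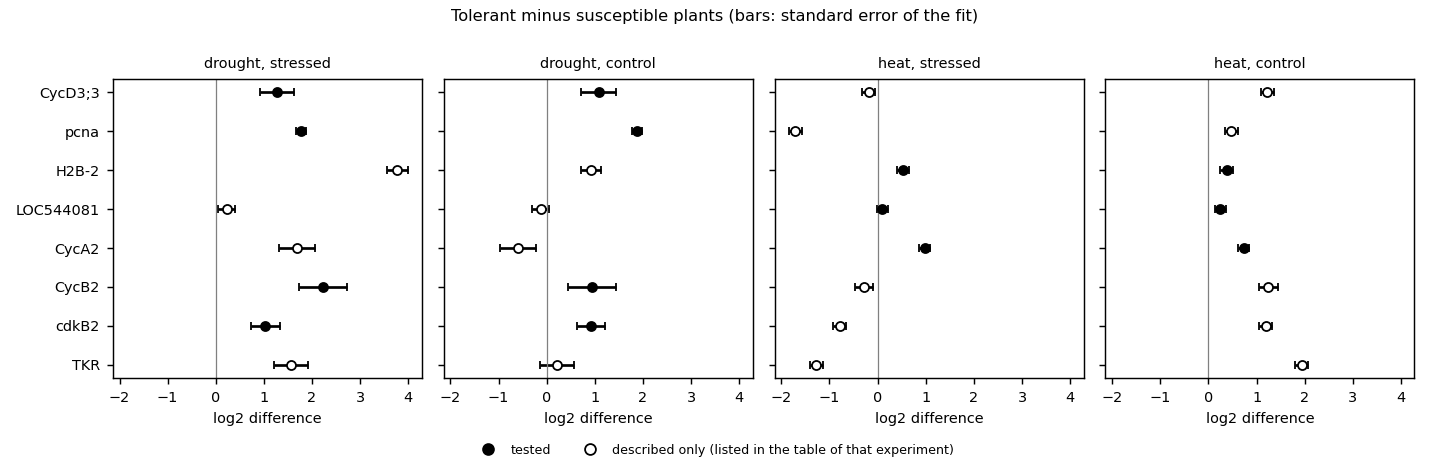
Log2 difference of tolerant minus susceptible plants for each member under stress and in controls of each experiment, with the standard error of the fit. Filled points were tested and open points are described only. Points of CycA2, CycB2, cdkB2 and TKR under drought stress and of CycB2 in drought controls and under heat stress have a brighter group in the reporter range. Under heat stress, pcna, TKR and cdkB2 lie below 0, whereas in heat controls every member lies above 0.

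Set in order over the 8 groups, every member had its lowest listed mean in drought-stressed susceptible plants. For CycA2, CycB2 and TKR all 3 arrays of that group lay in the reporter range, and for cdkB2 2 of 3 arrays of drought-stressed tolerant plants did, so the low end of their order is not settled. Nor is it for pcna and LOC544081, whose arrays in drought-stressed susceptible plants overlapped the next group. For pcna the means were 8.40 and, in heat-stressed tolerant plants, 8.48. For LOC544081 they were 6.46 and, in drought-stressed tolerant plants, 6.68. For CycD3;3 the call between these 2 stressed groups was lost after repeated quantile normalization (limma adjusted p = 0.173). It was also lost with the integrity covariate (limma adjusted p = 0.0733). Reporter medians lay between 3.08 and 3.12 in drought-stressed susceptible plants and between 4.06 and 4.80 in drought-stressed tolerant plants. The part of background in the order was not tested. The highest mean was in heat control tolerant plants for 6 members and in drought control tolerant plants for pcna and H2B-2. For LOC544081, CycB2 and cdkB2 the arrays of the top group overlapped the next, so their high end is not settled. Reporter 95th percentiles in heat control tolerant plants, 5.75 to 6.83, were the highest of the 8 groups. Of the 7 pairs of neighbouring groups in each order, H2B-2 had 0 pairs with overlapping replicates, CycA2 had 1, LOC544081 and cdkB2 had 2, CycD3;3, pcna and TKR had 3, and CycB2 had 4. The range of group means was 2.76 for pcna and 6.40 for H2B-2, which were above the reporter range on every array. Levels of the drought and heat experiments rest on the same deposited table, and the labels do not say if all arrays were normalized together.

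The members followed each other to differing degrees over the 8 group means, which share arrays and background. Pearson's r over the 28 pairs ran between 0.392 and 0.968, with a median of 0.803. The closest pair was LOC544081 and CycA2 (0.968), followed in the listing of best partners by CycD3;3 with LOC544081 (0.961) and cdkB2 with CycD3;3 (0.944). The least alike pair was CycB2 and LOC544081 (0.392), and the best partner of pcna was CycB2 (0.866). Among 403 other named genes, the 5 most like the mean profile of the members were the proline-rich protein gene TPRP-F1 (0.992), the cyclin CycA1 (0.987), the extensin gene LOC544060 (0.971), a class of wall glycoprotein, the kinase cdkB1 (0.964) and the nucleoside kinase LOC543715 (0.963). These are descriptions over 8 groups, and named genes are those the deposited tables list.

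**Figure D4:**
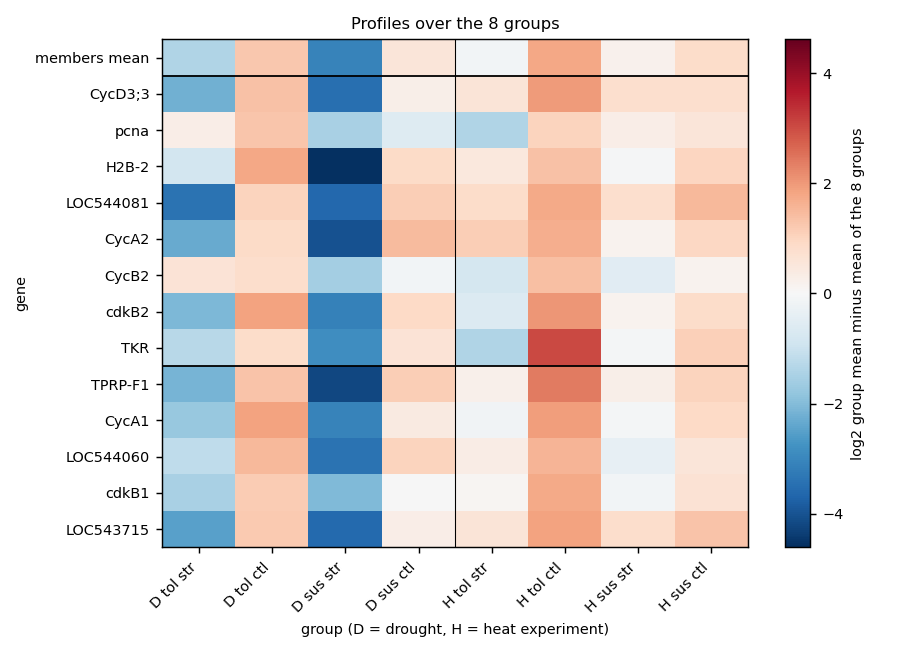
Colour scale of the log2 group mean minus the gene's mean over the 8 groups, with a row for the mean of the members, each of the 8 members and the 5 most alike other named genes, and a column per group. Every member has its lowest cell in drought-stressed susceptible plants, within the reporter range for CycA2, CycB2 and TKR.

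The files name 6 further genes of the cell division list, and they did not all move with the members. The list was matched on words in symbols and titles, so a part of LOC544142 and cdc5 in division is not established here. In drought, where CycA1, cdkB1 and the H1-histone-like gene LOC544142 could be tested, 2 fell and 1 rose in each genotype, beside 27.4% of all probe sets called higher in tolerant and 23.1% in susceptible plants. CycA1, another A-type cyclin, changed by -3.59 in tolerant (limma adjusted p = 2.95e-06) and by -3.52 in susceptible plants (limma adjusted p = 3.15e-06). cdkB1, a B1-type kinase, changed by -1.70 or lower in tolerant (limma adjusted p = 9.81e-05) and by -2.03 in susceptible plants (limma adjusted p = 0.000732).

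LOC544142, whose H1-type relatives bind DNA between nucleosomes, went the other way. It had 11.35, 11.41 and 11.02 in stressed tolerant plants, against 9.40, 9.43 and 9.50 in control tolerant plants, and 11.85, 11.80 and 11.87 in stressed susceptible plants, against 10.89, 10.81 and 10.59 in their controls. It rose by 1.82 in tolerant (limma adjusted p = 1.55e-06) and by 1.07 in susceptible plants (limma adjusted p = 5.72e-05), without overlap. The core histones H2B-2 and LOC544081 were lower in the same stressed plants. The further genes listed for drought are described only. TUB differed by -2.45 in tolerant and -0.71 in susceptible plants, and cdc2A-1 by -1.02 and -1.61. cdc5 was higher, by at least 0.63 in tolerant and by 0.78 in susceptible plants.

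Under heat, where the beta-tubulin TUB, the A-type kinase cdc2A-1 and the CDC5-like cdc5 could be tested, 2 rose in tolerant plants and 0 of 3 were called in susceptible plants, where limma gave 1 at an unadjusted p under 0.05. Of all probe sets, 29.6% were called higher in heated tolerant plants and 21.3% were called in heated susceptible plants. TUB, a subunit of microtubules, changed by 0.87 in tolerant plants (limma adjusted p = 0.00948). cdc5 was called lower there (limma adjusted p = 0.0153), but its 3 control arrays, at 5.43, 5.55 and 6.36, lay in the reporter range, so no difference is read, and the call was lost without heat tolerant stressed replicate 1 (limma adjusted p = 0.0547). cdc2A-1 changed by 0.33 (limma adjusted p = 0.0105), and by 0.10 after repeated quantile normalization and 0.05 after centring, where it was no longer called. In susceptible plants TUB changed by -0.12 (limma adjusted p = 0.808) and cdc2A-1 by -0.21 (limma adjusted p = 0.136). The further genes listed for heat are described only. CycA1 differed by -2.07 in tolerant and -1.02 in susceptible plants, and cdkB1 by -1.62 and -0.82. LOC544142 was higher, by 0.95 and 0.15. Stressed and control arrays of these genes did not overlap.

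**Figure D5:**
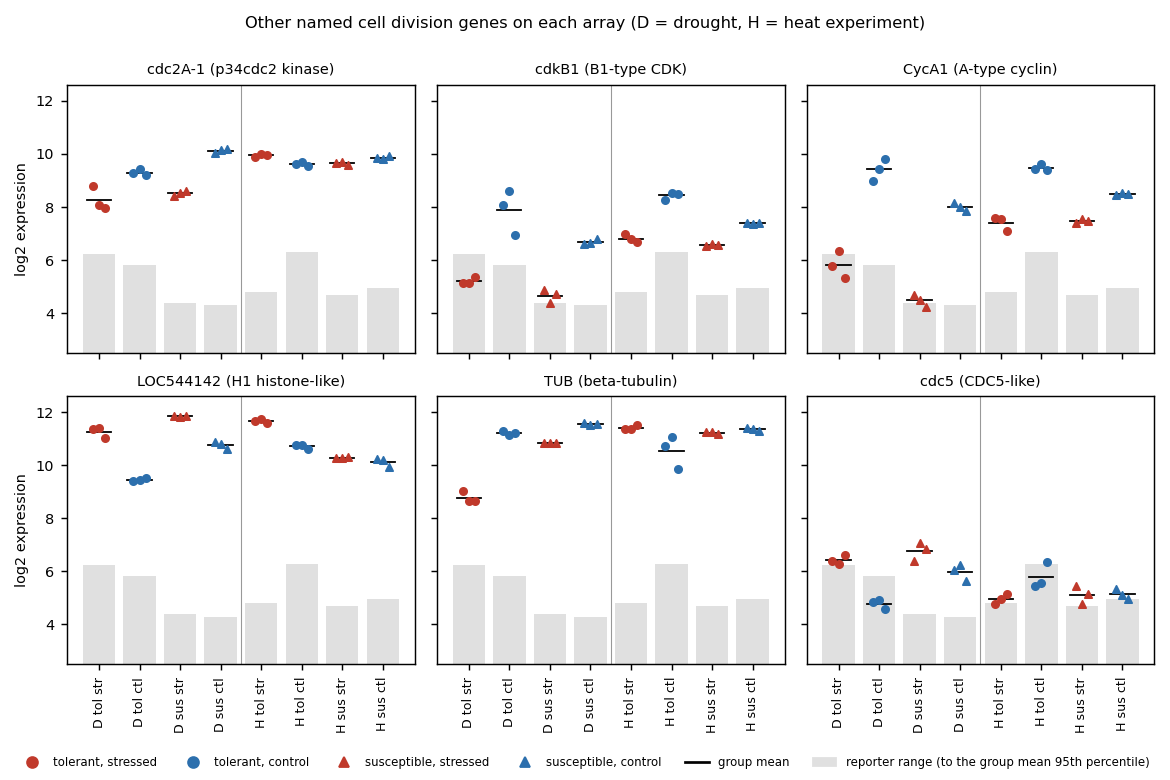
Log2 level of the 6 further genes of the cell division list on every array, by group, with bars for group means and shaded reporter ranges. CycA1 is lowest in drought-stressed susceptible plants, whereas LOC544142 is highest there.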

How the data were processed

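Total RNA of 24 leaf samples was hybridised to Affymetrix arrays. Per the submitters' processing notes, the deposited log2 values were made with Affymetrix Expression Console and RMA 1.0. The authors' deposited tables give a fold per genotype as a linear ratio with a direction. The 8 members and the gene lists were chosen with earlier results of these data known. Gene names came from those tables and the RefSeq gene table, and 459 probe sets had a single symbol.

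Of 10209 probe sets, 108 AFFX controls were left out, and limma 3.58.1 in R 4.3.3 (lmFit, eBayes) fitted 4 group means per experiment to the other 10101 with no further normalization. The Benjamini-Hochberg adjustment ran across these probe sets, with calls under 0.05, and the fit was tested on simulated data. All members were named. Other cell division genes were found by symbol or title, and the 5 named genes most alike were ranked by Pearson's r. The bound near background was adopted with the data known. Alternatives changed normalization, centring, filter, weights, arrays, replicate block, RNA integrity covariate and threshold, or left out an array. Same-numbered replicates deviated together (r over 0.1) in 1 of 18 pairs of arrays in drought and 8 of 18 in heat. In heat r ran from -0.34 to 0.36, which does not settle whether numbers mark pairs. The main fits did not take them as pairs, and the replicate block did.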

Additional observations from a re-analysis of the deposited data

Results flagged for a closer look

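The responses of 3 further genes of the cell division list differed between genotypes by limma's test of the difference. They were 1 of 3 tested in drought, where 37.2% of all probe sets were called, and 2 of 3 tested under heat, where 27.6% were. LOC544142 rose more in drought-stressed tolerant than susceptible plants, by 0.74 (adjusted p = 0.0074). Under heat, TUB had a higher response in tolerant plants by 0.98 (adjusted p = 0.0469), a call lost with the RNA integrity covariate (adjusted p = 0.0584), centring (0.0632), repeated quantile normalization (0.0522), the replicate block (0.0545) and with any of 10 arrays left out, and cdc2A-1 by 0.55 (adjusted p = 0.0114). Control tolerant heat arrays of TUB had 10.73, 11.06 and 9.86, the widest spread of its groups. Among the 7 tests of members, no difference was called.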

How the results depend on the processing

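Of 1040 recomputed values of single tested genes, 935 kept direction and side of the threshold, 76 lost a call, 10 gained a call and 19 changed sign. These values came from repeated quantile normalization, centring, the integrity covariate, the replicate block and each of 12 arrays left out in turn. Where the array left out lay outside the 2 groups compared, the difference could not change and only its p-value could. The 935 therefore overstates how far directions were put to a test. The number of members called for the difference of drought responses was 0 to 1 with an array left out, and for the difference of heat responses 3 with array weights and 1 after repeated quantile normalization. For genotypes in drought control plants it was 1 with the integrity covariate and 1 to 3 with an array left out, in drought stressed plants 2 with the covariate and 1 after quantile normalization, in heat control plants 1 with the covariate, with all 24 arrays in 1 fit and with only the groups compared, 0 at a log2 difference of at least 1, and 1 to 3 with an array left out, and in heat stressed plants 1 with the covariate and 0 at that threshold. At that threshold the heat response gave 1 in susceptible and 0 in tolerant plants. The count for the drought response of susceptible plants was 3 to 4 with an array left out. With the replicate block the counts were 3, 3, 0, 4 and 3 in drought (tolerant and susceptible response, difference, stressed and control genotypes) and 3, 3, 0, 2 and 2 in heat. The block changed 1 of these counts, by CycB2. With an array left out the sign could turn for the tolerant drought response of CycB2 (-0.56 to 0.42), the drought difference of CycD3;3 (-0.23 to 0.69), cdkB2 (-0.22 to 0.37) and CycA1 (-0.33 to 0.17), and the susceptible heat response of cdc5 (-0.16 to 0.17). After repeated quantile normalization it turned for the drought difference of CycD3;3 (-0.32), cdkB2 (-0.61) and pcna (0.00033), the heat difference of H2B-2 (-0.030, and -0.022 after centring) and cdkB1 between drought stressed genotypes (-0.24). With the covariate it turned for the drought difference of CycA1 (0.078) and for cdc5 between heat stressed genotypes (0.19). The cause was not tested. The TUB difference was not called under most alternatives. Signal over background limits CycB2 in both experiments, and TKR, CycA2 and cdkB2 in drought.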

Other observations

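Levels of 2 of the named genes most like the members' mean profile follow, as a description. The authors list TPRP-F1 for heat and LOC543715 for both experiments. In drought-stressed plants the means of both genes lay below the lowest reporter 95th percentile of their group. That percentile was 5.66 in tolerant and 4.34 in susceptible plants. Background limits these stressed levels, and the sizes of the drought differences are not read. TPRP-F1, a proline-rich protein gene, averaged 5.22 ± 0.98 in drought-stressed tolerant plants against 8.67 ± 0.49 in their controls, and 3.16 ± 0.07 in drought-stressed susceptible plants against 8.51 ± 0.09 in their controls (SD, n = 3 each). LOC543715, titled a TK1-like deoxyribonucleoside kinase, which salvages DNA precursors, averaged 4.65 ± 0.43 in drought-stressed tolerant plants against 8.34 ± 0.33 in their controls, and 3.55 ± 0.35 in stressed susceptible plants against 7.46 ± 0.09 in theirs. Under heat, LOC543715 averaged 7.74 ± 0.25 in stressed tolerant plants against 9.01 ± 0.10 in their controls, and 7.93 ± 0.06 in stressed susceptible plants against 8.46 ± 0.05 in theirs.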
